A study of Strongylocentrotus purpuratus and Patiria miniata with 14 samples.

Results

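The tbx2/3 locus was examined in 2 echinoderms, the sea urchin *Strongylocentrotus purpuratus* and the sea star *Patiria miniata*, through the open chromatin peaks called in an 80 kb window of each genome. The windows were set by position, on scaffold NW_022145605.1 from 26735000 to 26815000 in the sea urchin (Spur_5.0) and on scaffold NW_024037058.1 from 2990000 to 3070000 in the sea star (Pmin_3.0), and no measured value was used to choose them. They held 307 of the 652219 peaks in all lists, 119 in the sea urchin and 188 in the sea star. Whole wild type (WT) embryos, with no treatment named in the labels, were profiled by ATAC-seq, which reads where a transposase can cut and tag the DNA. Stages are given in hours post fertilisation (hpf). The 8 sea urchin libraries were of early blastula at 11 hpf, mesenchyme blastula at 24 hpf, prism at 66 hpf and pluteus at 72 hpf. The 6 sea star libraries were of mesenchyme blastula at 24 hpf, late gastrula at 66 hpf and bipinnaria at 90 hpf, and every stage of both species had 2 replicates. Whether these were separate cultures is not stated, and their spread may therefore be technical only. In whole embryos, a region open in few cells and a region weakly open in many cells cannot be told apart.

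Tbx2/3 belongs to the T-box family of transcription factors, which bind DNA through a shared domain and switch developmental genes on or off. Its vertebrate relatives Tbx2 and Tbx3 act largely as repressors. In sea urchin embryos the gene is known from the aboral ectoderm, the side of the larva opposite the mouth. Genes of this kind are read under the control of promoters and of enhancers that can lie far from the transcribed DNA, and both are usually more accessible to a transposase than the chromatin around them. A peak marks such accessible DNA and does not tell which gene it serves.

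The gene table of Spur_5.0 from RefSeq places Tbx2/3 (gene ID 575938) at 26739315 to 26775399, a span of 36085 bp, and gives neither strand nor scaffold. Its higher-coordinate end lies within 1 kb of the window centre, and it is the only end of the span that falls in the promoter region shown by the study, so it is called the start-side end here. This remains uncertain, since the coordinate ruler of that view appears mirrored relative to the gene span and the peaks, and the strand is not annotated. The position of the sea star gene was not determined from an annotation. Distances are given from the centre of each window, negative toward lower coordinates. Overlapping peaks of all libraries of a species were merged into clusters, numbered U1 to U30 in the sea urchin and S1 to S40 in the sea star along their scaffolds.

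Each listed peak carries a fold enrichment, the ratio of its signal to the local background estimated by the peak caller, and a p-value. Folds are given by library, and their differences between libraries were not tested. A peak was ranked by the percentage of its own list that was at least as strong by p, so that a low percentage is a strong peak. This percentage also depends on the other peaks of the list, and a change in it between stages need not be a change at the locus. The lists stop at a threshold on q, and a missing peak is therefore no measurement of closed chromatin. Lists held between 19469 and 56853 peaks in the sea urchin and between 56044 and 72079 in the sea star. Sequencing depth is unknown from the lists.

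The sea urchin window was dense in peaks at every stage. Relative density, the log2 of peaks per bp in the window over peaks per bp in the whole list, was 1.36 and 1.98 in the 11 hpf replicates, 2.65 and 2.44 at 24 hpf, 2.44 and 2.31 at 66 hpf, and 2.15 and 2.21 at 72 hpf. Both early blastula libraries were lower than the 6 later ones. In linear terms these were densities from 2.57 to 6.26 times that of the list. The windows held 8 and 9 peaks at 11 hpf, 22 and 15 at 24 hpf, 17 and 25 at 66 hpf, and 15 and 8 at 72 hpf.

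Of the spread in sea urchin density between libraries, 79.5% lay between stages. The exact permutation test over all ways of pairing the libraries gave p = 0.0190, and the value adjusted by Benjamini-Hochberg over the 9 tests made, 0.0571, missed the threshold of 0.05. Without the early blastula libraries 80.7% of the remaining spread lay between stages (exact p = 0.133). Among 11252 tiles of 80 kb along the sea urchin scaffolds, 9.98 and 1.93% held as many peaks as the window in the 11 hpf replicates, and between 0.0178 and 1.28% did in the later libraries.

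The sea star window was also dense, with less variation. Relative density was 1.94 and 1.75 in the replicates at 24 hpf, 2.15 and 2.01 at 66 hpf, and 1.84 and 1.92 at 90 hpf. The window held 30 and 28 peaks at 24 hpf, 33 and 31 at 66 hpf, and 30 and 36 at 90 hpf. Late gastrula was the highest stage in both replicates, and 67.5% of the spread lay between stages (exact permutation p = 0.267, where 0.0667 is the smallest p that 6 libraries in pairs allow). Of 7557 sea star tiles, between 0.0397 and 0.423% held as many peaks.

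**Figure D1:**
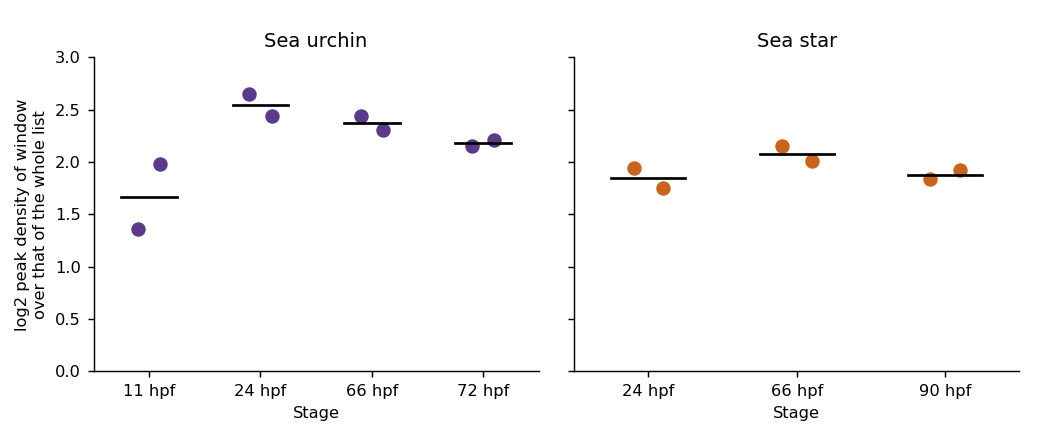
Relative peak density of the tbx2/3 window (y axis, log2 of the density in the window over that of the whole list) by stage (x axis, hpf) in each species. Points are libraries and black lines are stage means (n = 2); all 14 libraries lie above 0, and the 11 hpf sea urchin libraries, at 1.36 and 1.98, are the lowest of that species.

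Peaks of the windows were numerous but mostly of middling strength. The median fold of the window's peaks ran from 3.16 to 5.20 over the 14 libraries, against 4.20 to 5.59 for whole lists. The strongest peak of the window lay within the top 0.522 to 8.83% of its list in the sea urchin and the top 9.56 to 17.4% in the sea star.

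The sea urchin window contained 30 clusters that covered 9194 bp, or 11.5% of it. A peak was present in all 8 libraries in 5 clusters, U8, U16, U17, U22 and U30, which is 16.7% of the clusters, where 2.65% of the 115459 clusters of the whole genome were called in every library. Another 5 clusters (16.7%) were called in 1 library only, against 55.4% over the genome. Both replicates of at least 1 stage held a peak in 20 clusters, against 31.7% of clusters over the genome. The 5 clusters called everywhere had their middles at −17381, −233, 324, 8477 and 39430 bp from the window centre, so that 3 of them lay within 10 kb of it.

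**Figure D2:**
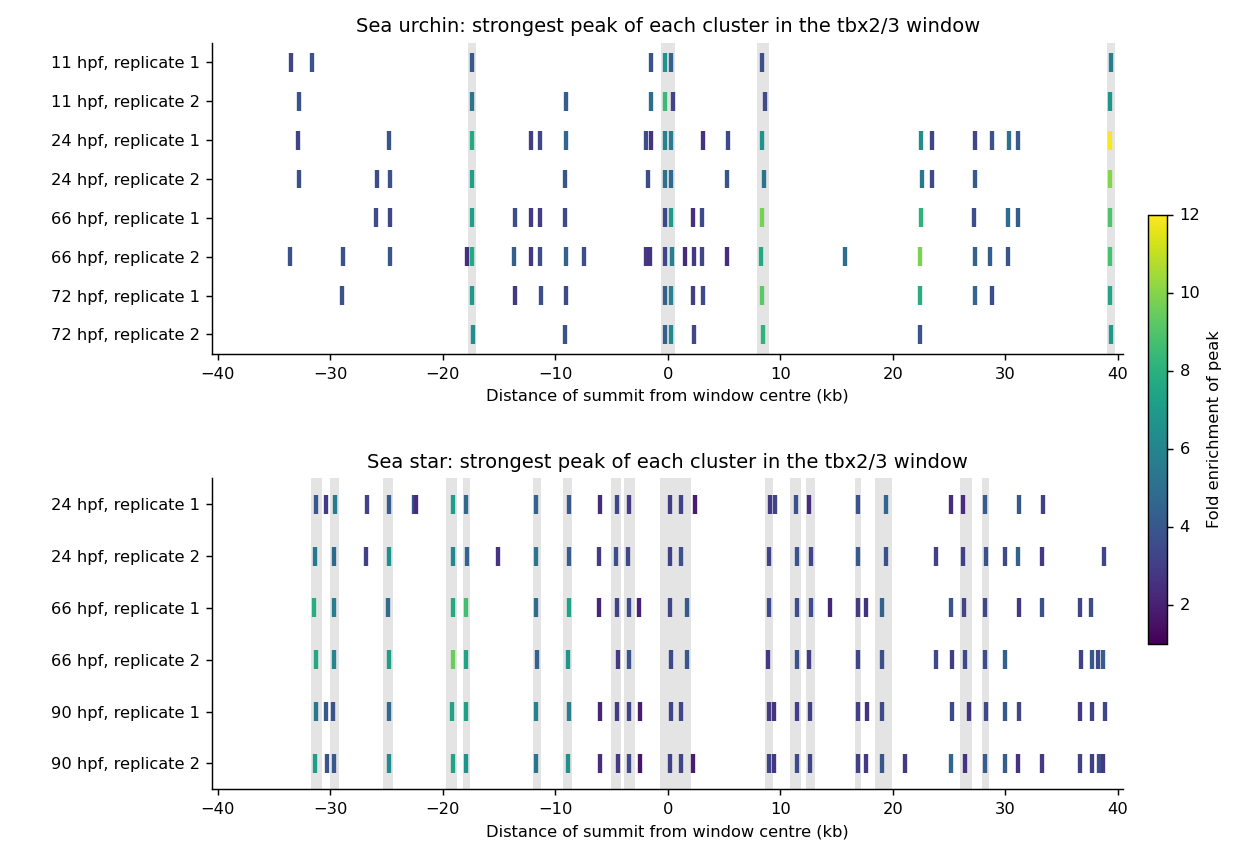
Summit of the strongest peak of each cluster (vertical ticks) by distance from the window centre in kb (x axis) in every library (y axis), coloured by fold enrichment, with sea urchin above and sea star below. Grey bands, slightly widened so that close neighbours merge, are clusters called in every library of the species, 5 in the sea urchin and 18 in the sea star.

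Clusters U16 and U17 sit beside the start-side end of the sea urchin gene. U16 (26774583 to 26774951, 369 bp) has its centre 632 bp inside that end, and U17 (26775108 to 26775541, 434 bp) spans the end itself. The summits of U16 fell within 20 bp of each other over the 8 libraries.

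At early blastula U16 was the strongest peak of the window. Its fold was 6.69 and 8.45 in the 11 hpf replicates, 5.83 and 5.21 at 24 hpf, 3.34 and 3.35 at 66 hpf, and 4.29 and 4.24 at 72 hpf. By rank it stood in the top 0.976 and 0.522% of the 11 hpf lists, 6.61 and 10.8% at 24 hpf, 45.5 and 36.5% at 66 hpf, and 24.0 and 32.7% at 72 hpf. The ranks of the 4 stages did not overlap. The ranks of 36.5% at 66 hpf and 32.7% at 72 hpf were, however, closer to each other than the replicates of either stage were. The −log10 p of U16 did overlap between the blastula stages, at 22.6 and 28.7 at 11 hpf and 28.2 and 20.3 at 24 hpf. The folds of U16 at these stages did not overlap. The part of the other peaks of the lists in its step in rank between these stages was not tested.

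U17, at the gene end, followed another order. Its fold was 4.45 and 3.20 at 11 hpf, 5.57 and 4.70 at 24 hpf, 7.03 and 5.77 at 66 hpf, and 5.83 and 6.16 at 72 hpf. It ranked in the top 8.61 and 78.9% at 11 hpf, 7.41 and 14.2% at 24 hpf, 3.25 and 6.36% at 66 hpf, and 8.36 and 8.83% at 72 hpf. In early blastula the replicates disagreed, since replicate 2 held a pair of short peaks there, the stronger of them 125 bp wide. U16 was the stronger of the neighbours by p in all libraries of 11 and 24 hpf, and U17 in all libraries of 66 and 72 hpf. This order was noticed in the values and was not tested.

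**Figure D3:**
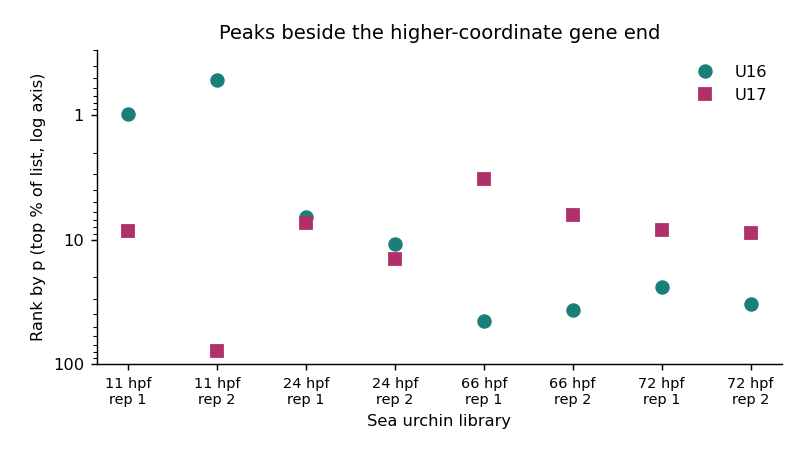
Rank of clusters U16 and U17 in each sea urchin library (x axis), as the percentage of the library's peaks at least as strong by p (y axis, log scale, stronger peaks higher). U16 is above U17 in the 4 libraries of 11 and 24 hpf and below it in the 4 libraries of 66 and 72 hpf.

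Inside the gene span, U8 (26757416 to 26757822) was the one other cluster called in all libraries. Its fold was 4.04 and 5.27 at 11 hpf, 7.65 and 7.29 at 24 hpf, 7.20 and 7.68 at 66 hpf, and 6.91 and 6.39 at 72 hpf. From 24 hpf on it ranked between the top 6.62 and 14.3% of every list, while its early blastula ranks of 36.0 and 6.63% were far apart. The remaining clusters within the span ranked lower, with medians from 36.4 to 96.4%. Of the 16 clusters wholly inside it, 2 were called in every library and 3 in 1 library only.

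On the other side of the start-side end, U22 (26783101 to 26783853) was the widest cluster of the sea urchin window at 753 bp. Its fold was 3.70 and 3.52 at 11 hpf, 6.65 and 5.25 at 24 hpf, 9.73 and 7.66 at 66 hpf, and 9.19 and 8.12 at 72 hpf. Its rank was 86.5 and 93.0% at 11 hpf, 14.9 and 26.8% at 24 hpf, 4.41 and 7.08% at 66 hpf, and 4.60 and 10.3% at 72 hpf. U22 was thus among the weakest peaks of the early blastula lists and among the stronger ones of the larval lists. Its 11 hpf peaks, 26783314 to 26783493 in replicate 1 and 26783680 to 26783779 in replicate 2, did not overlap each other and were joined only through the wider peaks of later stages.

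U30 (26814235 to 26814626), close to the upper edge of the window, had the highest fold of the window in both 24 hpf libraries. Its folds were 5.56 and 6.76 at 11 hpf, 11.9 and 10 at 24 hpf, 8.93 and 8.75 at 66 hpf, and 7.47 and 6.91 at 72 hpf. The rank was 11.9 and 4.67% at 11 hpf, 5.03 and 8.73% at 24 hpf, 16.3 and 18.1% at 66 hpf, and 21.8 and 24.1% at 72 hpf. Every library of the blastula stages ranked it higher than any library of the larval stages. The folds gave another order, with both 11 hpf libraries below every later library.

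A peak at U24 (26797218 to 26797674) was called in both replicates at 24, 66 and 72 hpf and in neither at 11 hpf. Clusters called in both replicates of all stages but 1, and in neither of that one, made up 3.76% of sea urchin clusters over the genome. Its fold was 6.41 and 5.43 at 24 hpf, 8.08 and 9.84 at 66 hpf, and 7.86 and 3.87 at 72 hpf. The weakest of these ranked at 85.2%, near the end of the list of 72 hpf replicate 2, and the others ranked between 6.27 and 30.9%.

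A single cluster, U25 (26798370 to 26798560), was called in both replicates of 1 stage and nowhere else, a pattern of 6.12% of sea urchin clusters. It was present at 24 hpf with folds of 3.26 and 3.47, and ranked at 94.2 and 94.8%, so that both peaks were close to the threshold of their lists. Its summits lay 1 bp apart.

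Counted by stage, the sea urchin clusters grew in number up to prism larva. At 11 hpf 6 of the 30 clusters were called in both replicates, 4 in one and 20 in neither, where 8.90% of clusters over the genome were called in both. At 24 hpf 13 were called in both (15.5% over the genome), at 66 hpf 15 (22.4%), and at 72 hpf 8 (11.5%). The larval stages differed in list length as well, and 72 hpf replicate 2 was the shortest list of all with 19469 peaks. The part of list length in these counts was not tested.

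The clusters are also listed by the irreproducible discovery rate (IDR), which is meant to keep regions that rank consistently high in both replicates. It was computed anew here from the ranks of the p-values. At an IDR of at most 0.1 the sea urchin window held 2 replicated regions of 5 joined pairs at 11 hpf, where 29.4% of joined pairs passed over the genome. It held 8 of 13 at 24 hpf (57.9%), 8 of 15 at 66 hpf (60.4%) and 5 of 8 at 72 hpf (55.5%). In the fit used here, a pass does not mean strong peaks. At 24 hpf the weak U25, ranked at 94.2 and 94.8%, passed with an IDR of 0.0917. The stronger U12, ranked at 39.3 and 58.0%, did not pass, with an IDR of 0.143. U16 and U30 were the 2 clusters that passed at every stage, as 1.19% of sea urchin clusters did over the genome. At 11 hpf, U16 had an IDR of 1.52e-05 and U17 one of 0.510.

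The sea star window contained 40 clusters that covered 16818 bp, or 21% of it. A peak was present in all 6 libraries in 18 of them (45%), where 27.5% of the 105823 clusters over the genome were called in every library, and 7 clusters (17.5%) were called in 1 library only, against 29.9%. Both replicates of at least 1 stage held a peak in 31 clusters, against 61.3% over the genome. The clusters called in every library were S1, S3, S5, S8, S9, S11, S12, S14, S15, S17, S18, S21, S23, S24, S26, S28, S32 and S33. When peaks were grouped by summits within 150 bp instead, 15 clusters were called in every library. They lay between −31248 and 28242 bp from the centre, and none of the 6 clusters above 30 kb on the higher-coordinate side was called in every library.

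The sea star clusters differed in strength along the window. The 9 clusters of lower coordinates that were called in all libraries, S1 to S15, had median folds between 3.06 and 7.41 and median ranks between 14.4 and 37.7%. The 7 of higher coordinates, S21 to S33, had median folds between 2.92 and 3.85 and median ranks between 37.6 and 76.0%. Peaks at the lower-coordinate side thus tended to stand higher in their lists than those at the higher-coordinate side, as a description of these libraries.

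At the centre of the sea star window, 2 broad clusters followed each other. S17 (3029474 to 3030606) was 1133 bp wide and S18 (3030706 to 3031898) 1193 bp, and with S28 (3048586 to 3049820, 1235 bp) they were the 3 clusters of at least 1000 bp, a width reached by 0.695% of sea star clusters over the genome. No sea urchin cluster of the window reached it, and 0.167% of sea urchin clusters over the genome did.

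S17 had low folds and high ranks. Its fold was 2.94 and 3.14 at 24 hpf, 3.32 and 3.37 at 66 hpf, and 3.25 and 3.14 at 90 hpf, and its rank was 22.4 and 20%, 22.0 and 19.8%, and 19.3 and 20.9% in the same order. Among the sea star clusters called in all libraries, S17 had the narrowest range of ranks. S18 had folds of 3.16 and 3.68 at 24 hpf, 4.08 and 3.97 at 66 hpf, and 3.30 and 3.25 at 90 hpf, and ranked between the top 14.6 and 21.2%. Its summit moved by up to 528 bp between libraries, and 5 of the 6 libraries held more than 1 peak in it.

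The strongest sea star cluster by median rank was S12 (3020883 to 3021383), about 9 kb below the centre. Its fold was 3.97 and 4.22 at 24 hpf, 7.44 and 6.72 at 66 hpf, and 5.62 and 6.52 at 90 hpf. It ranked at 22.4 and 21.7% at 24 hpf, 11.8 and 12.7% at 66 hpf, and 16.1 and 9.56% at 90 hpf, so that both mesenchyme blastula libraries stood below the 4 later ones. S12 was the strongest peak of the window in all 4 libraries of late gastrula and bipinnaria larva.

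S8 (3010416 to 3011132) had the highest fold of the window in 4 of the 6 sea star libraries. Its folds were 7.06 and 6.03 at 24 hpf, 7.65 and 9.48 at 66 hpf, and 7.43 and 7.38 at 90 hpf, with ranks between the top 13.1 and 27.3%. The neighbouring S9 (3011911 to 3012294) had folds of 4.66 and 4.50 at 24 hpf, 8.66 and 7.36 at 66 hpf, and 7.26 and 6.68 at 90 hpf. S9 ranked at 38.1 and 43.4% at mesenchyme blastula and between 16.2 and 21.5% in the 4 later libraries, and these did not overlap.

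S14 (3025149 to 3025739) went the other way. Its fold was 3.39 and 3.62 at 24 hpf, 3.15 and 2.92 at 66 hpf, and 2.97 and 2.91 at 90 hpf. It ranked at 17.4 and 16% at 24 hpf and between 31.4 and 36.1% later, and it was the strongest peak of the window in 24 hpf replicate 1. Its neighbour S15 (3026243 to 3026933) showed no such split, with folds from 2.92 to 3.80 and ranks between the top 16.6 and 23.6%.

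The remaining clusters called in all libraries had higher median folds on the lower-coordinate side than on the other. On the lower side, S1 (2998397 to 2999107) had folds from 4.03 to 7.84, S3 (3000106 to 3000591) from 3.75 to 5.96, S5 (3004851 to 3005417) from 4.17 to 7.16 and S11 (3018159 to 3018593) from 4.39 to 5.90. On the higher side, S21 (3038815 to 3039218) had folds from 2.77 to 3.49, S23 (3041036 to 3041663) from 2.98 to 3.92 and S24 (3042460 to 3042950) from 2.45 to 3.56. S26 (3046793 to 3047073) ran from 2.93 to 4.14, S28 from 3.46 to 4.60, S32 (3056158 to 3056868) from 2.38 to 3.43 and S33 (3058068 to 3058417) from 3.34 to 4.21. S32 came close to the threshold, ranking at 99.0% in 24 hpf replicate 1, where it was nearly not listed.

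Stage-limited clusters of the sea star were weak. S4 (3003139 to 3003302) was called in both replicates at 24 hpf and at no other stage, with folds of 3.17 and 3.08 and ranks of 68.2 and 76.2%, a pattern of 8.56% of sea star clusters. S37 (3066503 to 3066790) and S38 (3067545 to 3067801) were called in both replicates at 66 and 90 hpf and in neither at 24 hpf, a pattern of 5.19%.

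S37 had folds of 3.33 and 3.10 at 66 hpf and 2.80 and 3.12 at 90 hpf, and S38 had 3.60 and 3.98 at 66 hpf and 3.19 and 3.06 at 90 hpf. Their ranks ran from 61.7 to 90.4%. Both lie beyond 36 kb, where the number of summits in the last 10 kb of the window was 2 and 4 at 24 hpf, 4 and 5 at 66 hpf, and 5 and 7 at 90 hpf. Replicates of neighbouring stages met in that count, which was not tested.

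By stage, 22 of the 40 sea star clusters were called in both replicates at 24 hpf (43.0% over the genome), 21 at 66 hpf (39.5%) and 29 at 90 hpf (46.7%). At an IDR of at most 0.1 there were 16 replicated regions of 23 joined pairs at 24 hpf (65.7% over the genome), 14 of 25 at 66 hpf (63.7%) and 21 of 28 at 90 hpf (65.4%). Over stages, 23 of the 40 sea star clusters passed at least once, against 40.1% of clusters over the genome, and 10 of the 30 sea urchin clusters did, against 16.4%. The 11 sea star clusters that passed at every stage (17.9% over the genome) were S3, S8, S9, S11, S12, S14, S15, S17, S18, S23 and S28.

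The layouts of the species were then set side by side. In the full lists, with bins matched by coordinate, the bin from 10 to 20 kb differed most. It held 0.125 ± 0.354 summits per library in the sea urchin (SD, n = 8), which came from 1 peak of 66 hpf replicate 2, and 6.50 ± 2.07 in the sea star (SD, n = 6), where it was the fullest bin. In lists of equal length it held 0 summits in all 8 sea urchin libraries and 0.333 ± 0.516 in the sea star (SD, n = 6), so most summits of this sea star bin were outside the 19469 strongest peaks of their lists. In the sea urchin the fullest bin was that from 0 to 10 kb, with 4 ± 1.31 summits in the full lists (SD, n = 8). Among clusters called in at least 2 libraries, the largest stretch without one was 13364 bp in the sea urchin (26783854 to 26797217, between U22 and U24) and 6916 bp in the sea star (3031899 to 3038814, between S18 and S21). Over the genome the median stretch between such clusters was 6984 bp in the sea urchin and 2854 bp in the sea star. These bins were chosen after their values were seen and were not tested, and the window centres need not mark the same point of the gene in both species. Directions from the centre need not match either, since the sea star gene was not placed. On the other side of the sea star centre, the bin from −20 to −10 kb held 3.33 ± 0.816 summits (SD, n = 6).

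**Figure D4:**
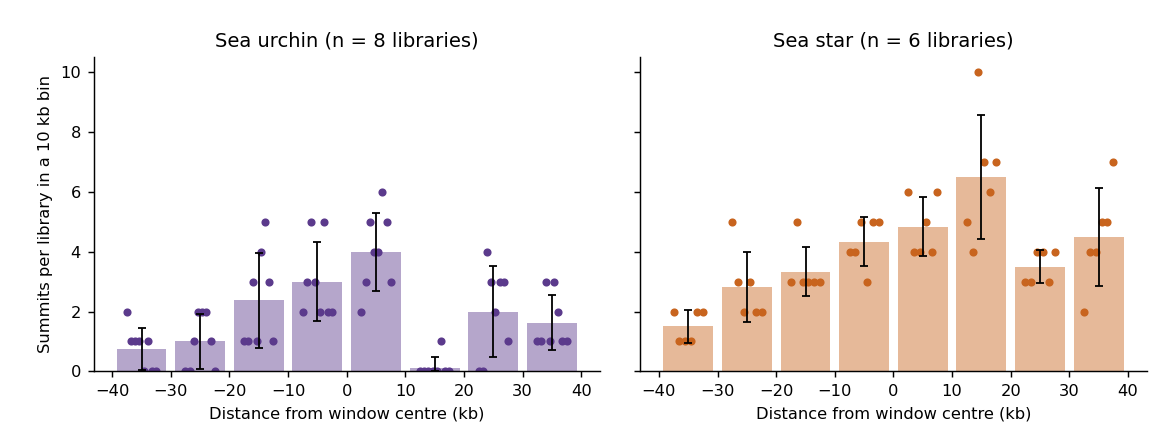
Summits per library in 10 kb bins of the full lists (y axis) by distance from the window centre in kb (x axis). Bars are means, black lines the SD (cut at 0), and points libraries (n = 8 sea urchin, n = 6 sea star). The bin from 10 to 20 kb holds 0.125 summits on average in the sea urchin and 6.50 in the sea star. The direction of the x axis relative to the gene need not be the same in both species.

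In the full lists, summits were more concentrated near the centre in the sea urchin. The share within 10 kb of the centre, which is 25% of the window's length, was 50 and 66.7% at 11 hpf, 45.5 and 46.7% at 24 hpf, 35.3 and 44.0% at 66 hpf, and 46.7 and 62.5% at 72 hpf. In the sea star it was 33.3 and 28.6% at 24 hpf, 27.3 and 25.8% at 66 hpf, and 30 and 30.6% at 90 hpf. The groups did not overlap, with means of 49.7 ± 10.2% (SD, n = 8) and 29.3 ± 2.65% (SD, n = 6), and the exact two-sided permutation test over 3003 arrangements gave p = 0.000999, adjusted 0.00899. It was the only one of the 9 tests to pass after adjustment. Like the other species tests, it treated libraries that share a stage as separate units, at a single window per species. The p-value sets the difference against the spread between libraries and not against that between animals or loci.

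This difference ended when lists of equal length were compared, an alternative added after the data were seen. With the 19469 strongest peaks of each of the 14 lists, the window held 5 to 10 peaks per library in the sea urchin and 7 to 9 in the sea star, and the central share was 54.6 ± 8.86% (SD, n = 8) and 55.4 ± 7.11% (SD, n = 6), a difference of −0.799 points (exact permutation p = 0.868). Leaving out the weaker peaks thus moved the sea star mean from 29.3 to 55.4% and the sea urchin mean from 49.7 to 54.6%. With matched stages alone, 24 and 72 hpf in the sea urchin against 24 and 90 hpf in the sea star, the full lists gave 19.7 points (exact permutation p = 0.0286, the smallest that this design allows, adjusted 0.0857).

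**Figure D5:**
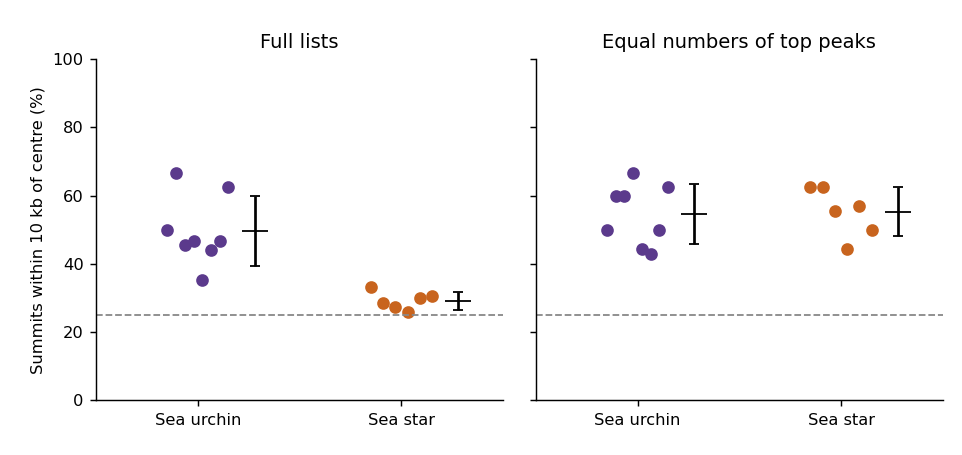
Share of the window's summits within 10 kb of its centre (y axis, percent) in the full lists and in the 19469 strongest peaks of each list. Points are libraries, the black mark beside them is the mean with its SD, and the dashed line is the 25% of the window that the central stretch covers; the species are apart in the full lists and overlap in the equal ones.

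The median distance between neighbouring summits was 4798 ± 2793 bp in the sea urchin (SD, n = 8) and 1695 ± 416 bp in the sea star (SD, n = 6). The difference of 3103 bp had an exact permutation p of 0.0180, adjusted 0.0571, with the groups overlapping. Over whole lists the same median was 10923 ± 3933 bp in the sea urchin (SD, n = 8) and 3778 ± 336 bp in the sea star (SD, n = 6), so summits were also farther apart in the sea urchin outside the locus. Relative density was 2.19 ± 0.392 and 1.94 ± 0.141, a difference of 0.257 on the log2 scale (exact permutation p = 0.154, adjusted 0.208). Without the early blastula libraries the density difference was 0.431 (exact permutation p = 0.00433, adjusted 0.0195) and that in spacing 2042 bp (p = 0.0108, adjusted 0.0325), and leaving out only 11 hpf replicate 1 gave a density difference of 0.375 (adjusted exact permutation p = 0.0262).

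The side on which summits lay turned with the peaks that were counted. Sides were matched by coordinate alone. The sea star gene was not placed, so the higher-coordinate side need not be the same side of the gene in both species. In the full lists 51.7 ± 8.16% of sea urchin summits (SD, n = 8) and 61.3 ± 6.69% of sea star summits (SD, n = 6) were on the higher-coordinate side, a difference of −9.67 points (exact permutation p = 0.0366, adjusted 0.0824). The same direction passed in the central 40 kb (−15.3 points, adjusted exact permutation p = 0.00749). In lists of equal length the shares were 52.5 ± 18% and 28.6 ± 5.80%, a difference of 23.9 points in the opposite direction (exact permutation p = 0.0147, adjusted 0.0429). The strongest sea star peaks therefore lay mostly on the lower-coordinate side, where S1 to S15 are, and the many weaker ones on the higher side.

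Peaks of the window were found in the other replicate more often than peaks of the whole list in all sea urchin libraries. Agreement in the window was 62.5 and 66.7% at 11 hpf, 63.6 and 86.7% at 24 hpf, 88.2 and 60% at 66 hpf, and 53.3 and 100% at 72 hpf, where the list values ran from 31.3 to 80.6%. In the sea star it was above the list value in 4 of 6 libraries, with 76.7% against 80.7% in 24 hpf replicate 1 and 78.8% in both window and list in 66 hpf replicate 1, and it reached 96.7% in 90 hpf replicate 1. The means, 72.6 ± 16.7% (SD, n = 8) and 85.2 ± 7.07% (SD, n = 6), differed by −12.5 points (exact permutation p = 0.107, adjusted 0.192), and in lists of equal length by 0.780 points in the opposite direction (exact permutation p = 0.847, adjusted 0.868).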

How the data were processed

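Peak lists of 14 ATAC-seq libraries were used, 8 of sea urchin and 6 of sea star. Per the study's methods and the labels, the authors aligned reads with Bowtie2, filtered them with SAMtools and called peaks in each replicate with MACS2, on Spur_5.0 or Pmin_3.0. Per peak, the values deposited by the authors are a score, the ratio of signal to background (fold enrichment), and −log10 of p and of q. The lists hold no read counts, so depth is unknown, and differences in fold between lists were not tested.

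Python 3.11.15 with numpy 2.4.6, pandas 2.3.3, scipy 1.17.1 and matplotlib 3.10.9 was used. Peaks were assigned to a window by an overlap of at least 1 bp, merged into clusters by the same overlap (checked against bedtools 2.31.1), and joined between replicates for an IDR computed anew from p-value ranks, at most 0.1. The IDR and permutation code was tested on simulated data. Species were compared over libraries by exact two-sided permutation tests. Stages were compared by exact permutation tests of the spread between stages, which have no sides. Benjamini-Hochberg adjustment was made over the 9 tests. In the adjustment of an alternative, tests it did not touch kept their p.

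Named clusters were those called in every library, in both replicates of exactly 1 stage, or of all stages but 1, and the 5 of highest median rank per species among those in at least 4 sea urchin or 3 sea star libraries. The members, lists and rules were chosen with earlier results of these data known. Replicate differences of the 3 sea star stages correlated weakly in every pair of stages (r from 0.114 to 0.195). This was the only ground for pairing these libraries by number, since the labels do not pair them. Whether the numbers mark a shared origin was not tested. Alternatives were a q of at most 0.001, equal numbers of top peaks per species, a narrower window, other merging and overlap rules, no IDR or a stricter one, matched stages, leaving out 11 hpf or each replicate, and a replicate block. Equal lists over all 14 libraries and the other side definition were added later. No genome sequence was used here, and 33490 of 33503 genes of the RefSeq table have no scaffold, so neighbouring genes were not placed.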

Additional observations from a re-analysis of the deposited data

How the results depend on the processing

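Directions and calls are those of the adjusted p-values. With equal lists over all 14 libraries, the central share turned to −0.799 points, the side share to 23.9, agreement to 0.780, density rose to 0.477 (adjusted exact permutation p = 0.0429) and spacing to 3928 bp (0.0180). With equal lists within each species, spacing was 6292 bp (adjusted exact permutation p = 0.00300), and the sea urchin had 16 clusters, 2 of them in every library, and 5 replicated regions at 66 hpf. The central 40 kb gave a side difference of −15.3 points (adjusted exact permutation p = 0.00749), and the lower side in sea urchin against the higher in sea star −13.0 (0.0429), both past the threshold that the full window missed. Matched stages (24 and 72 hpf sea urchin, 24 and 90 hpf sea star) gave a central difference of 19.7 points that missed the threshold after adjustment. Without 11 hpf, density differed by 0.431 and spacing by 2042 bp, both past the threshold. A q of at most 0.001 left 3 sea urchin clusters in every library. With no IDR the replicated regions were 5, 13, 15 and 8 in the sea urchin stages and 25 at 66 hpf in the sea star. The cause was not tested.

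Leaving out each replicate gave 0.192 to 0.375 for density, 2618 to 3514 bp for spacing, 18 to 22.5 points for the central share (adjusted exact permutation p from 0.00524 to 0.0280), −11.3 to −7.65 for the side and −16.5 to −9.79 for agreement. Density passed without 11 hpf replicate 1, and spacing without sea urchin 24 hpf replicate 1 (3466 bp) or 66 hpf replicate 2 (3514 bp). Leaving out a replicate was not possible for replicated regions, which need both.

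With the replicate block the central difference was 20.4 points (exact permutation p = 0.00163, adjusted 0.0147), and the block changed no call. In the species tests it grouped libraries of both species by replicate number, which no label ties together. The unchanged calls therefore add no support. Sea urchin replicate differences correlated between stages at r from −0.251 to 0.0880, and whether their numbers pair those samples was not tested. Of all alternative values, 218 kept their side of the threshold or their size, and 9 counts moved. Another 11 passed a threshold that the main setting missed, 1 no longer passed and 1, the central share in equal lists, was reversed. The 11 include the side share in equal lists over all 14 libraries, which passed with the opposite sign. The 218 include the sea star stage tests, which cannot pass, and an agreement difference that changed sign. Their number is therefore no measure of how firm the results are.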
